A study of Mus musculus with 12 samples.

Results

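The S100 genes described here are *S100a1*, *S100a3*, *S100a4*, *S100a5*, *S100a6*, *S100a10*, *S100a11*, *S100a13*, *S100a16* and *S100b*. They were taken by gene symbol from an RNA-seq table of mouse B16-F10 melanoma cells, and all 10 were among its 23022 listed genes. The list was drawn up because *S100a6* differed strongly by genotype in these same libraries, so every comparison of genotypes is given as a description without a p-value for its members.

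The table holds 4 conditions with 3 libraries each, 12 in all. The control cells, NTC, are called No template control in the sample labels and non-targeting control by the study, and the MBNL1 MBNL2 DKO cells carry a paired guide RNA against *Mbnl1* and *Mbnl2*. For polyclonal knockout cells the study reports that western blots did not show a full loss of protein, while most alleles held indels. The labels do not say whether the sequenced DKO cells were polyclonal, so their knockout may be incomplete. MBNL proteins bind RNA and are best known as regulators of alternative splicing. Cells of each genotype were left untreated or were given 1 ng/mL IFNγ for 24 h, as the study states it. All 4 conditions share the Cas9 transgene and derive from a single Cas9-expressing clone, so the libraries show 1 background of this line. The labels number the replicates without saying whether they were separate cultures, and p-values then measure only the spread between these samples.

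S100 proteins are small calcium-binding proteins of the EF-hand type that usually work as dimers. When calcium binds, most of them expose a surface through which they hold other proteins, among them the annexins. Some are also secreted and act on receptors such as RAGE. Most S100 genes lie in a cluster, which in the mouse is on chromosome 3. In melanoma the family is known above all for S100B, a marker used in pathology and in serum, and for S100A4 and S100A6, which are often linked to motility and invasion.

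Values are TPM, in which a gene's reads are divided by transcript length and scaled to a fixed total, so that levels of different genes can be set side by side. The read depth cannot be told from TPM, and the errors given here come from replicates. Tests and log2 differences used limma on log2(TPM + 1), which understates the ratio of genes near 1 TPM, with Benjamini-Hochberg adjustment over the 11663 genes that reached at least 1 TPM in at least 3 libraries. Of the members, 8 passed that filter and 2 did not, *S100a3* and *S100a5*. *Mbnl1* RNA was lower in DKO cells by a log2 difference of −0.41 without IFNγ and −0.47 with it, and *Mbnl2* RNA by −0.20 and −0.23. All 7 melanocyte markers were detected, and 5 of 5 keratinocyte, 2 of 5 leukocyte (*Ptprc*, *Cd3e*) and 2 of 3 endothelial markers (*Cdh5*, *Kdr*) were listed at 0 in every library. The other leukocyte markers, *Itgam*, *Cd79a* and *Lyz2*, summed to between 0.348 and 2.23 TPM, and the endothelial marker *Pecam1* reached at most 0.914 TPM. Summed over the listed genes, the libraries held between 805782 and 827191 TPM in DKO and between 844185 and 874612 TPM in NTC cells, and a scaling between libraries is not stated.

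Of the members, 9 lie on chromosome 3 and *S100b* lies on chromosome 10. By GENCODE M21 on GRCm38, *S100a6* is a protein-coding gene at chr3:90612882-90624181 on the plus strand. On the same strand just before it come *S100a4*, whose start is at −9.11 kb from that of *S100a6*, and *S100a5*, at −4.36 kb. By annotated start, farther out on that side are *S100a3* (−52.3 kb) and *S100a16* (−75.6 kb). Then come, back to back on opposite strands with starts 43 bases apart, *S100a13* (−98.4 kb) and *S100a1* (−98.5 kb). *S100a3* as annotated ends at chr3:90602702, just before the *S100a4* start at 90603771. *S100a11* and *S100a10* form a separate pair on the other side, 2908 and 2942 kb from *S100a6*. *S100b* overlaps *Dip2a* on the other strand and *S100a3* overlaps *S100a2* on its own strand, in each case with 0 shared exonic bases. GENCODE M21 also holds *Gm42674*, which is not in the table and lies on the same strand across *S100a3* and *S100a4* (chr3:90601904-90605885). It shares 302 of the 584 exonic bases of *S100a4* and 144 of the 5660 of *S100a3*, so reads there could belong to either gene, and the values of *S100a4* are uncertain to that extent.

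The promoters of *S100a4*, *S100a5* and *S100a6* are shown because these 3 genes follow each other on 1 strand. As described next, *S100a4* and *S100a6* differed by genotype, while *S100a5* did not pass the filter on low values. Each window is 300 bases of RefSeq sequence (GRCm38.p6, plus strand), from 250 bases before the annotated start to 50 bases after it. The windows are chr3:90603520-90603819 for *S100a4*, chr3:90608272-90608571 for *S100a5* and chr3:90612644-90612943 for *S100a6*. Capitals mark the only match, on either strand, to the motifs searched.
*S100a4*: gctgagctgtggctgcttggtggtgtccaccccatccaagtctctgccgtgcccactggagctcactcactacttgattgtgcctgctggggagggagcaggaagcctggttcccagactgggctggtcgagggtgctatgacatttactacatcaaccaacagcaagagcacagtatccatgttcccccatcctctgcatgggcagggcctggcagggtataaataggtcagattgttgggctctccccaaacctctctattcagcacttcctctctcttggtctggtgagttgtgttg
*S100a5*: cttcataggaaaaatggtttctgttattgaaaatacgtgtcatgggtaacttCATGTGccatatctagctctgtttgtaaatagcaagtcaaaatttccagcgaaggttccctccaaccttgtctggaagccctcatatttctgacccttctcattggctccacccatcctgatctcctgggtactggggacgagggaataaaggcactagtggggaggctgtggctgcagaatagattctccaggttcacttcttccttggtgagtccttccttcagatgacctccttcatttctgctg
*S100a6*: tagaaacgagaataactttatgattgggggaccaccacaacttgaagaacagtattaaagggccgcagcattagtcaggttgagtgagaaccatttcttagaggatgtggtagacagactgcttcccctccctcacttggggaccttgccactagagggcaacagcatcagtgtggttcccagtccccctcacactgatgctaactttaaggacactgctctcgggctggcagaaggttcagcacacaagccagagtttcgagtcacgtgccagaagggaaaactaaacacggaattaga
The motifs were the GAS element of interferon-γ signaling (TTCNNNGAA), the AP-1 site (TGANTCA) and the M-box core of melanocyte genes (CATGTG). RefSeq windows were found for 9 of the members. With alternative starts these came to 13 windows. GAS letters were in 0 of the 13, against 8.30% of 32851 promoter windows of the mouse. AP-1 letters were in 2 of the 13, *S100a11* at positions −136 and −38 from the start and an alternative start of *S100a16*, against 7.81% of windows. M-box letters were in 3 of the 13, *S100a5* at −198, 1 of the starts of *S100a3* and 1 of those of *S100a16*, against 14.2% of windows. A match is a description of letters, and no match says only that they are not in that window.

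In untreated NTC cells the members covered a wide range of levels. *S100a11*, which binds annexin A1, was the most abundant at 173 ± 4.35 TPM (mean ± SD, n = 3), followed by *S100a1* at 101 ± 5.63, *S100a10* at 86.9 ± 1.64 and *S100b* at 79.8 ± 1.65 TPM. A large step down came *S100a13* at 22.1 ± 0.253, *S100a16* at 8.18 ± 0.801, *S100a6* at 5.53 ± 0.276 and *S100a4* at 5.15 ± 0.732 TPM. The ranges of *S100a6* and *S100a4* overlapped, while every other pair of neighbours in this order was apart. *S100a5* (0.830 ± 0.00548 TPM) and *S100a3* (0.325 ± 0.104 TPM) came last.

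The order was different in DKO cells. *S100a11* (225 ± 0.521 TPM) and *S100a10* (114 ± 0.334) led, *S100a1* (85.5 ± 3.91) and *S100b* (51.4 ± 2.17) followed, and *S100a6* (23.4 ± 2.88) now stood beside *S100a13* (25.4 ± 2.13), with ranges that overlapped. *S100a4*, at 12.2 ± 1.44 TPM, was above *S100a16*, at 9.58 ± 1.18, whereas in NTC cells it was below. With IFNγ the same order held in DKO cells, and in NTC cells *S100a10* (112 ± 4.71 TPM) stood above *S100a1* (107 ± 6.69 TPM), with ranges that overlapped.

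**Figure D1:**
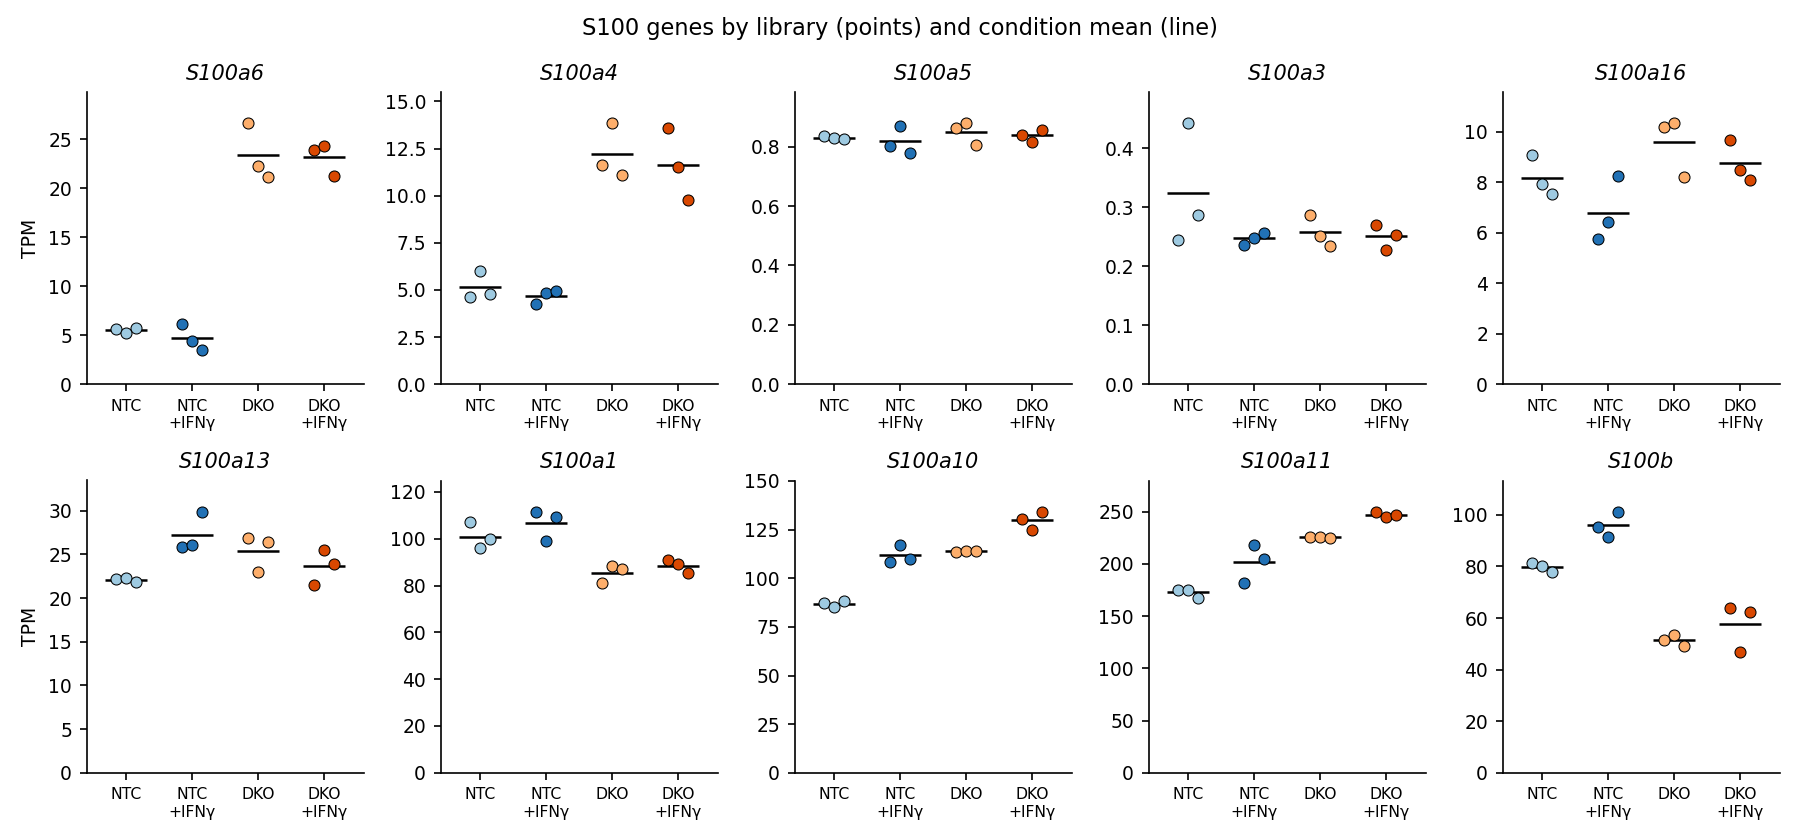
TPM of the 10 S100 genes (y axes from 0, a separate scale for each gene) in the 4 conditions, with 1 point per library and a line at the mean of 3. The 6 DKO libraries lie above the 6 NTC libraries for *S100a6*, *S100a4* and *S100a11* and below them for *S100a1* and *S100b*.

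*S100a6*, or calcyclin, binds annexins and the calcyclin-binding protein CACYBP. The untreated NTC libraries held 5.64, 5.22 and 5.74 TPM of it, and the untreated DKO libraries held 26.6, 22.3 and 21.2 TPM. With IFNγ, NTC libraries held 6.18, 4.46 and 3.53 TPM and DKO libraries 23.9, 24.3 and 21.2 TPM. The lowest DKO library, at 21.2 TPM, was far above the highest NTC library, at 6.18 TPM. In RNA from whole cultures, more cells with the transcript and more transcript per cell cannot be told apart. The ratio of mean TPM was 4.23 without IFNγ and 4.90 with it, and the log2 differences were 1.89 (SE 0.134, 95% interval 1.60 to 2.18) and 2.10 (1.81 to 2.39). Ordered by that difference, *S100a6* was at place 4 of 11663 genes without IFNγ and at place 1 with it. With a pseudocount of 0.1 in place of 1 TPM the untreated difference was 2.05. These are the values for which the family was chosen.

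*S100a4*, known as metastasin and as a binder of non-muscle myosin, was the member most like *S100a6*. Without IFNγ, its NTC values were 4.65, 5.99 and 4.81 TPM and its DKO values 11.6, 13.8 and 11.1 TPM. With IFNγ, the NTC values were 4.27, 4.86 and 4.96 TPM and the DKO values 13.6, 11.5 and 9.79 TPM. All DKO libraries were above all NTC libraries, by a ratio of mean TPM of 2.37 without IFNγ and 2.48 with it. The log2 differences were 1.10 (SE 0.119, 95% interval 0.85 to 1.36) and 1.14 (0.88 to 1.40), at places 39 and 44 of 11663. Because *S100a4* is also read as a fibroblast gene, the fibroblast list was set beside it: 2 of its 6 genes passed the filter, *Col1a1* and *Col1a2*, its sum ran from 2.44 to 2.70 TPM in untreated NTC, 1.74 to 2.14 in treated NTC, 3.53 to 4.41 in untreated DKO and 3.58 to 3.95 TPM in treated DKO libraries, and *Dcn* and *Lum* were at 0 in all 12.

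*S100a5*, which lies between these genes, was under 1 TPM in all 12 libraries and showed no such difference in its listed values. It stood between 0.780 and 0.871 TPM over the 6 NTC libraries and between 0.805 and 0.879 TPM over the 6 DKO libraries, so the groups overlapped, and the ratio of DKO to NTC means was 1.02 without IFNγ and 1.03 with it. *S100a3*, on the far side of *S100a4*, lay between 0.236 and 0.442 TPM in NTC and between 0.228 and 0.287 TPM in DKO libraries. At levels under 1 TPM neither gene was tested in the main fit, and a difference of small size was not detectable. Whether *S100a5* and *S100a3* follow *S100a6* and *S100a4* cannot be told from values this low. Of the other S100 genes in the table, *S100a2*, *S100a9*, *S100g* and *S100z* were listed at 0 in all 12 libraries, while *S100a7a*, *S100a8* and *S100a14* stayed at or below 0.569, 0.918 and 0.903 TPM.

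*S100a11* and *S100a10* were higher in DKO cells by smaller amounts. For *S100a11*, untreated NTC libraries held 175, 175 and 168 TPM against 225, 226 and 225 TPM for untreated DKO, which is 0.38 on the log2 scale (SE 0.0526, 95% interval 0.27 to 0.50). Under IFNγ the NTC libraries held 182, 218 and 205 TPM against 250, 245 and 247 TPM for DKO, or 0.30 (0.19 to 0.41) on the log2 scale. All 6 DKO libraries were above all 6 NTC libraries. *S100a10*, the partner of annexin A2 in a membrane-bound complex, had 87.4, 85.0 and 88.2 TPM when NTC cells were untreated and 113, 114 and 114 TPM when DKO cells were (log2 difference 0.39, SE 0.0417, 95% interval 0.30 to 0.48). Treated cells had 108, 117 and 110 TPM (NTC) and 130, 125 and 134 TPM (DKO) of it (log2 difference 0.21, 0.12 to 0.30). Its groups were apart at either treatment, although 1 treated NTC library reached the level of untreated DKO cells.

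*S100b* went the other way. Untreated NTC cells gave 81.3, 80.1 and 78.0 TPM and untreated DKO cells 51.5, 53.5 and 49.2 TPM, or −0.63 on the log2 scale (SE 0.0900, 95% interval −0.82 to −0.43). Treated NTC cells gave 95.4, 91.5 and 101 TPM and treated DKO cells 63.8, 46.9 and 62.5 TPM, or −0.74 (−0.93 to −0.54). The highest DKO library was below the lowest NTC library, and counted from the lowest difference *S100b* was at place 271 without IFNγ and 176 with it. The melanocyte list was also lower in DKO cells: the sum of its 7 genes (*Tyr*, *Tyrp1*, *Dct*, *Pmel*, *Mlana*, *Mitf* and *Sox10*) ran from 16647 to 17553 TPM in untreated NTC, 18050 to 18642 in treated NTC, 11124 to 11452 in untreated DKO and 12319 to 12414 TPM in treated DKO libraries. For *Sox10* with IFNγ the groups overlapped, at 265 to 277 TPM in NTC and 216 to 279 TPM in DKO libraries. Every other melanocyte gene, and *Sox10* without IFNγ, had all DKO libraries below all NTC libraries of the same treatment. The part of the melanocyte list in the *S100b* difference was not tested.

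*S100a1*, best known from heart and skeletal muscle, was also lower in DKO cells. Values without IFNγ were 107, 95.9 and 100 TPM for NTC and 81.0, 88.2 and 87.3 TPM for DKO (log2 difference −0.24, SE 0.0566, 95% interval −0.36 to −0.12). Values with IFNγ were 112, 99.0 and 109 TPM for NTC and 91.0, 89.4 and 85.3 TPM for DKO (log2 difference −0.26, 95% interval −0.38 to −0.14). Its back-to-back neighbour *S100a13*, which takes part in the release of FGF1 from cells, was lower in DKO cells only with IFNγ. *S100a13* without IFNγ had values of 22.2, 22.4 and 21.9 TPM for NTC and of 26.8, 23.0 and 26.4 TPM for DKO, higher in all 3 (log2 difference 0.19, SE 0.0765, 95% interval 0.02 to 0.35). With IFNγ the values were 25.8, 26.1 and 29.9 TPM for NTC and 21.5, 25.5 and 23.9 TPM for DKO, lower in all 3 (−0.20, 95% interval −0.36 to −0.03). The sign of the genotype difference of *S100a13* was therefore opposite at the 2 treatments, with no overlap of groups in either. Groups were also apart for 51.6% and 49.9% of all tested genes. Neither *S100a13* difference had an adjusted p-value under 0.05, and the difference of its responses to IFNγ did not pass (limma adjusted p = 0.364).

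*S100a16* is a broadly expressed member. NTC cells without IFNγ gave 9.07, 7.94 and 7.53 TPM and DKO cells 10.2, 10.3 and 8.23 TPM (log2 difference 0.20, SE 0.119, 95% interval −0.05 to 0.46). NTC cells with IFNγ gave 5.76, 6.42 and 8.23 TPM and DKO cells 9.70, 8.50 and 8.08 TPM (0.33, 95% interval 0.07 to 0.59). Of the tested members, only *S100a16* had groups that overlapped, which they did at either treatment. Its limma adjusted p-value was under 0.05 with IFNγ, where 43.3% of all tested genes passed, but not without it.

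Over the family, all 6 DKO libraries were above all 6 NTC libraries for 3 of the 10 members (*S100a4*, *S100a6*, *S100a11*), below them for 2 (*S100a1*, *S100b*) and overlapped for 5. Of all tested genes, 27.1% were apart in this way and 12.4% were above. An adjusted p-value under 0.05 between genotypes was reached by 6 of the 8 tested members without IFNγ, 4 higher and 2 lower, where 36.4% of all tested genes reached it (17.0% higher, 19.4% lower), and by 7 with IFNγ, 5 higher and 2 lower, where 43.3% did (19.5% higher, 23.9% lower). The 3 DKO and 3 NTC libraries did not overlap for 7 of the 8 at either treatment, beside 51.6% of all tested genes without IFNγ and 49.9% with it. The members were chosen on this contrast, and nothing is read from these counts or from the medians that follow. The median log2 difference of the 8 was 0.29 and 0.26, against −0.0055 and −0.013 for all tested genes.

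The make-up of the family's RNA differed between the genotypes. Summed over the 10 members, S100 RNA came to 482 ± 9.87 TPM in untreated NTC, 560 ± 17.6 in treated NTC, 548 ± 4.24 in untreated DKO and 592 ± 14.2 TPM in treated DKO cells. *S100a6* made up 1.15% ± 0.0596 of that sum in untreated NTC and 4.27% ± 0.520 in untreated DKO cells, and 0.848% ± 0.270 and 3.92% ± 0.322 with IFNγ. The share of *S100b* was 16.5% ± 0.154 in untreated NTC against 9.39% ± 0.323 in untreated DKO cells. *S100a10* and *S100a11* together held 53.8% ± 0.558 and 61.9% ± 0.421. Even in DKO cells *S100a6* was thus a minor part of S100 RNA, and in TPM the means of *S100a10* and *S100a11* differed by more between untreated DKO and NTC cells than that of *S100a6*.

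**Figure D2:**
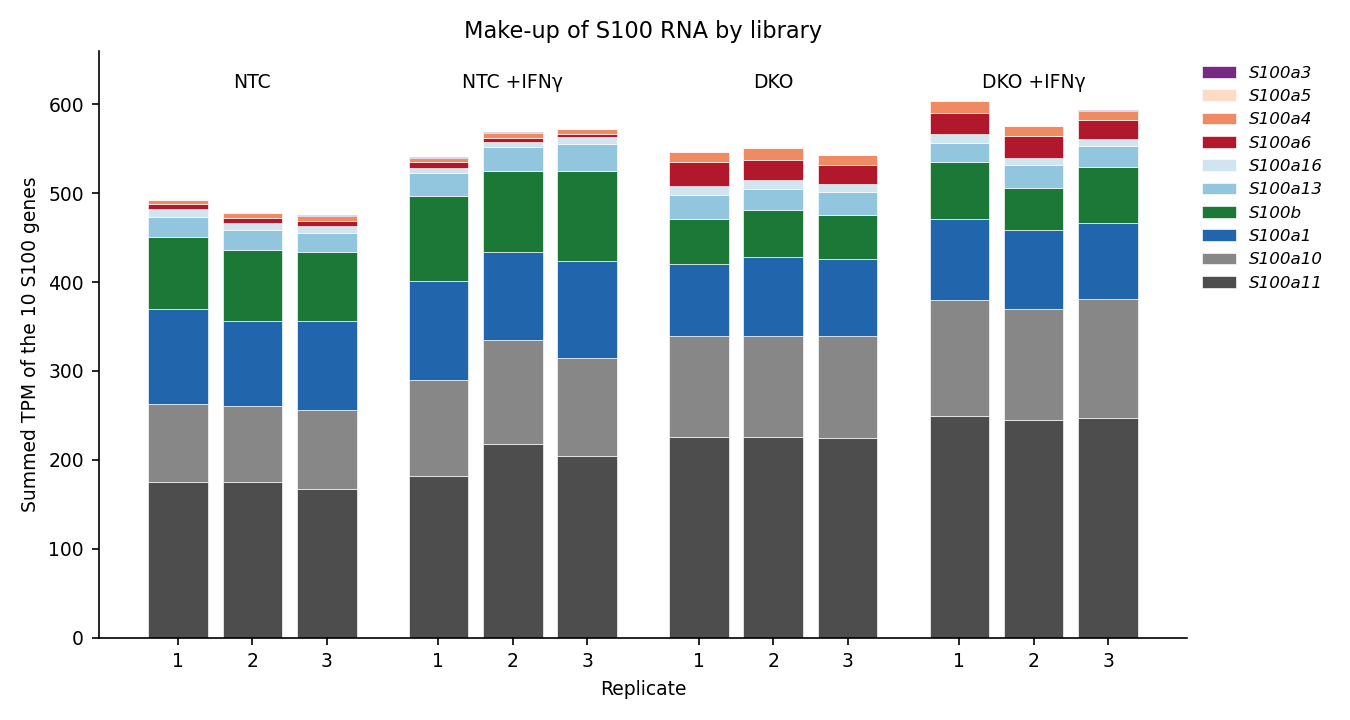
Stacked TPM of the 10 S100 genes (y axis from 0) in each of the 12 libraries, by replicate number and condition. *S100a11* is the largest block of every bar, *S100a10* lies next to it at the base, *S100a6* (red) is a thin band in NTC libraries and a wider one in DKO libraries, and the *S100b* block (green) is narrower in DKO libraries.

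The other genes around *S100a6* did not share its difference. Within 500 kb of its start the table lists 17 genes that are not S100 genes, and 12 of them were tested. Between genotypes, 4 of the 12 (33.3%) had an adjusted p-value under 0.05 without IFNγ, 1 higher and 3 lower, beside 36.4% of all tested genes, and 4 did with IFNγ, again 1 higher and 3 lower, beside 43.3%. Their median log2 differences were −0.03 and −0.14, and the highest were 0.18 (*Rab13*, untreated) and 0.14 (*Slc39a1*, treated), far under the 1.10 of *S100a4*.

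By name, the neighbours with the highest mean difference were *Slc39a1*, a zinc transporter (0.16 and 0.14), *Jtb* (0.11 and 0.03), *Rab13*, a small GTPase of vesicle traffic (0.18 and −0.04), *Ilf2* (0.07 and −0.04) and *Crtc2*, a CREB coactivator (−0.0014 and 0.0047). Those with the lowest were *Rps27*, a ribosomal protein gene (−0.48 and −0.34, with an SE of 0.285 and groups that overlapped), *Snapin*, which acts in synaptic vesicle fusion (−0.35 and −0.38), *Dennd4b* (−0.46 and −0.24), *Chtop*, which takes part in mRNA export (−0.33 and −0.27), and *Slc27a3* (−0.05 and −0.24). *Snapin* and *Chtop* had every DKO library below every NTC library of the same treatment. *Chtop*, at −103 kb, is the nearest tested gene before the cluster and stood between 137 and 153 TPM in untreated NTC and between 113 and 115 TPM in untreated DKO libraries.

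On the other side of *S100a6* the table gives little to compare. The listed genes within 500 kb there, *S100a7a*, *S100a8*, *S100a9*, *Pglyrp4*, *GM5849* and *9130204L05Rik*, were all under the filter, and the last 3 were at 0 in all libraries. The nearest tested gene beyond the cluster that is not an S100 gene was *Them4*, a thioesterase gene 3.70 Mb away, with log2 differences of −0.80 and −0.59. Around *S100a10* and *S100a11*, the 7 other listed genes within 250 kb reached at most 0.176 TPM, so that pair has no tested neighbour. With a window of 250 kb around *S100a6*, 2 of 5 tested neighbours passed without IFNγ and 3 with it, beside 36.4% and 43.3% of all tested genes, none of them higher in DKO cells. With 1000 kb, 11 (52.4%) and 9 (42.9%) of 21 passed, 2 of them higher at each treatment.

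**Figure D3:**
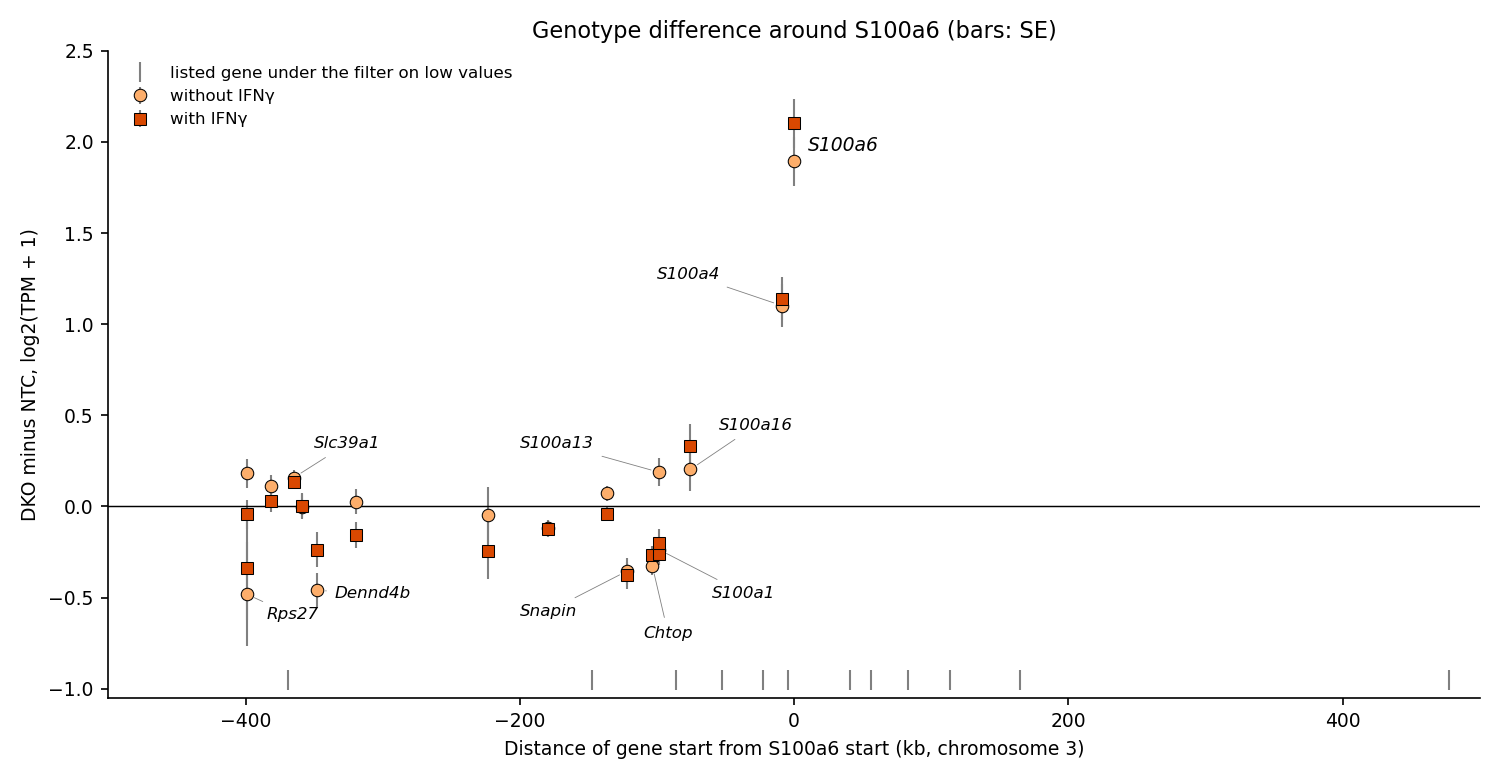
DKO minus NTC difference of log2(TPM + 1), without IFNγ (circles) and with it (squares), against the distance of each gene's start from that of *S100a6* in kb, with bars of 1 SE and ticks at the base for listed genes under the filter on low values. *S100a6* at 1.89 and 2.10 and *S100a4* at 1.10 and 1.14 stand above all other genes plotted, which lie between −0.48 and 0.33.

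The genes whose pattern was most like that of *S100a6* were therefore looked for over the whole genome. Likeness was the root mean square distance between log2(TPM + 1) profiles over the 12 libraries, each profile centred on its own mean, and since 6 libraries are DKO and 6 are NTC it follows mainly the genotype difference. The nearest were *Ptp4a3*, a phosphatase gene (distance 0.223), *Cacng7*, a calcium channel subunit (0.244), *Ccng1*, cyclin G1 (0.267), *Cdkn1a*, the p21 inhibitor of cyclin-dependent kinases (0.269), and *Ddit4l*, an inhibitor of mTOR signaling (0.270). Their log2 differences without IFNγ ran from 1.41 (*Cdkn1a*) to 1.73 (*Ccng1*). Only *Ddit4l* is on chromosome 3. *S100a4* came at place 29 (0.496), *S100a11* at 1221, *S100a10* at 1604, *S100a16* at 1721, *S100a13* at 6254, *S100a1* at 9773 and *S100b* at 11454 of the tested genes.

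The response to IFNγ was not used to choose the family and was tested. IFNγ is an interferon that raises antigen presentation. In NTC cells, 3 of the 8 tested members rose, *S100a10*, *S100a11* and *S100a13*, and none fell, where 12.1% of all tested genes passed, with 7.31% higher and 4.78% lower. Treated and untreated NTC libraries did not overlap for these 3 and *S100b*, 4 of 8, beside 36.6% of all tested genes. *S100a10* rose from 86.9 ± 1.64 to 112 ± 4.71 TPM (n = 3 each), a log2 difference of 0.36 (SE 0.0417, 95% interval 0.27 to 0.45, limma adjusted p = 0.000169), with all treated above all untreated libraries. That call was kept in every alternative and with each library left out in turn (adjusted p from 0.000122 to 0.00262).

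*S100a11* rose from 173 ± 4.35 to 201 ± 18.1 TPM in NTC cells, a log2 difference of 0.22 (SE 0.0526, limma adjusted p = 0.0229). *S100a11* lost its call without treated NTC replicate 2 (adjusted p = 0.0873) or 3 (0.0813), without untreated NTC replicate 2 (0.0601) or 3 (0.0837), and with a trend in GC content and length removed (0.15, adjusted p = 0.10). *S100a13* rose from 22.1 ± 0.253 to 27.3 ± 2.27 TPM, a log2 difference of 0.29 (SE 0.0765, limma adjusted p = 0.0312). *S100a13* did not pass without treated NTC replicate 2 (adjusted p = 0.0654) or 3 (0.120), without untreated NTC replicate 1 (0.0610), 2 (0.0830) or 3 (0.0933), with library totals made equal (0.0554) and with no filter on low values (0.0540). Both calls were also lost with a prior variance that did not follow the mean, at adjusted p = 0.0527 for *S100a11* and 0.0530 for *S100a13*.

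*S100b*, at 79.8 ± 1.65 and 96.0 ± 4.89 TPM, had a log2 difference of 0.26 (SE 0.0900) with all treated above all untreated NTC libraries, but did not pass (limma adjusted p = 0.0696). It passed with only the NTC libraries fitted (adjusted p = 0.0127) and without treated DKO replicate 2 (0.00474), a library that bears on this NTC comparison only by way of the common variance. *S100a6* was not called in NTC cells, with a log2 difference of −0.22 (SE 0.134, 95% interval −0.51 to 0.07, limma adjusted p = 0.289). Without treated NTC replicate 1, its highest treated NTC library, the difference was −0.39 (adjusted p = 0.0341), and without treated NTC replicate 3, its lowest, it was −0.060 (adjusted p = 0.792). *S100a4* (−0.11), *S100a16* (−0.24) and *S100a1* (0.08) were not called either.

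In DKO cells 0 of the 8 members passed the limma test, where 0.78% of all tested genes did, and 2 of the 8 had an unadjusted p under 0.05, beside 9.59% of all tested genes. These were *S100a10*, with 114 ± 0.334 and 130 ± 4.75 TPM (log2 difference 0.19, SE 0.0417, limma adjusted p = 0.0644), and *S100a11*, with 225 ± 0.521 and 247 ± 2.52 TPM (0.13, SE 0.0526, adjusted p = 0.414). For both, all treated DKO libraries were above all untreated ones, which makes 2 of 8 members without overlap beside 14.7% of all tested genes. *S100a10* passed once the trend in GC content and length was taken out (adjusted p = 0.0379), with library totals made equal (0.0310) and without treated DKO replicate 2 (0.0348). Without that library *S100b* passed as well (log2 difference 0.29, adjusted p = 0.0167), against 0.15 (adjusted p = 0.638) with all libraries, treated DKO replicate 2 being the lowest of the 12 for *S100b*. *S100a6* differed by −0.0087 (SE 0.134, 95% interval −0.30 to 0.28) and *S100a4* by −0.07.

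The difference between the responses of DKO and NTC cells passed the limma test for 0 of the 8 members and for 4 of 11663 genes (0.0343%). At an unadjusted p under 0.05 there were 2 of the 8 members and 1340 genes (11.5%). These members were *S100a13*, whose log2 response was 0.29 in NTC and −0.10 in DKO cells (difference −0.39, SE 0.108, 95% interval −0.62 to −0.15, limma adjusted p = 0.364), and *S100a10* (0.36 and 0.19, difference −0.17, 95% interval −0.30 to −0.04, adjusted p = 0.385). For *S100a6* the difference was 0.21, with a 95% interval from −0.20 to 0.62, so a moderate difference in either direction was not detectable with 3 libraries per condition. It was 0.052 without treated NTC replicate 3 and 0.38 without treated NTC replicate 1, and passed in neither.

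**Figure D4:**
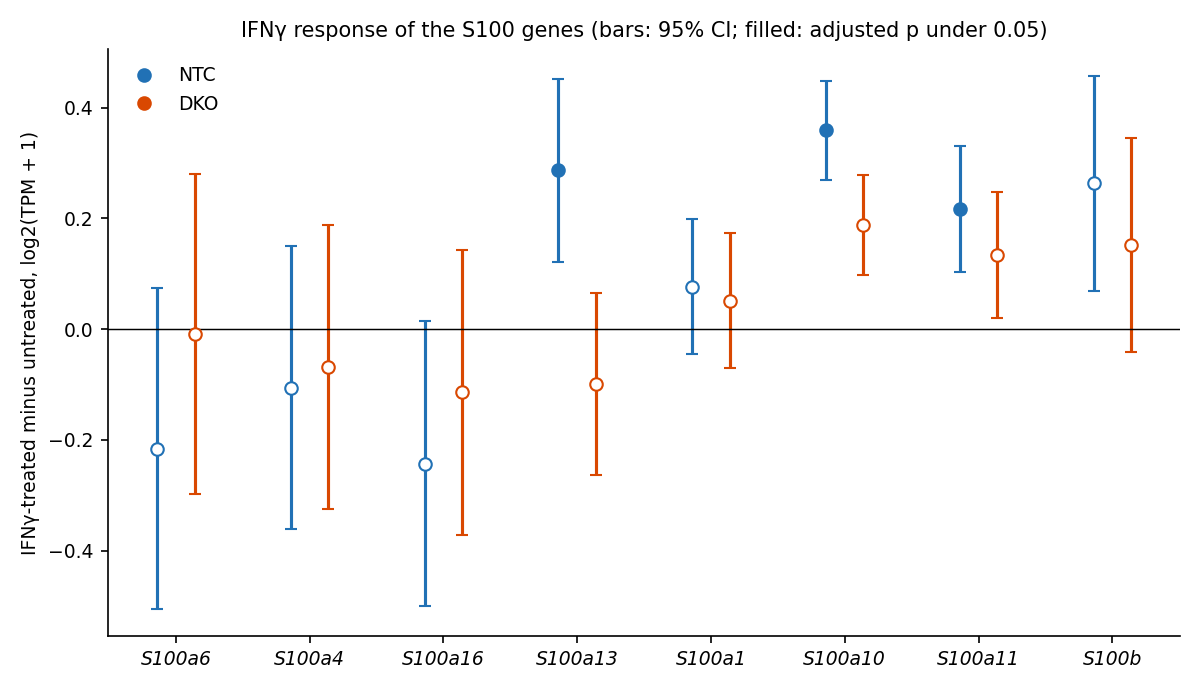
Treated minus untreated difference of log2(TPM + 1) for the 8 tested S100 genes in NTC (blue) and DKO (orange) cells, with 95% intervals, filled where the limma adjusted p-value was under 0.05. The filled points are *S100a13* (0.29), *S100a10* (0.36) and *S100a11* (0.22), all in NTC cells, and the intervals of NTC and DKO cells overlap for every gene but *S100a13*.

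Proteins that S100 proteins bind or act through were then set beside the family, as a list of 16 genes that were all tested. Between genotypes 8 had an adjusted p-value under 0.05 without IFNγ, 5 higher and 3 lower, and 11 with IFNγ, 6 higher and 5 lower, beside 36.4% and 43.3% of all tested genes. The median log2 differences of the list were 0.09 and 0.12. *Anxa1*, which binds *S100a11*, had values of 96.2, 90.4 and 91.9 TPM for untreated NTC and of 152, 157 and 158 TPM for untreated DKO, apart from each other, with log2 differences of 0.74 (SE 0.0505) without IFNγ and 0.55 with it. *Anxa2*, which binds *S100a10*, had differences of −0.13 and −0.18, opposite in sign to those of *S100a10*. *Cacybp*, which binds *S100a6*, had 0.29 and 0.15, and *Anxa6* had 0.37 and 0.30. The scaffold gene *Ahnak*, which the *S100a10* complex binds, had 0.31 and 0.55 at a level of only 1.85 to 3.83 TPM over all libraries. *Anxa11* had −0.38 and −0.31, and *Myh9*, the myosin heavy chain that *S100a4* binds, had −0.07 and 0.12.

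With IFNγ in NTC cells, 3 of the 16 passed the limma test, beside 12.1% of all tested genes. *Anxa1* (0.20, limma adjusted p = 0.0271) and *Sugt1*, an *S100a6* partner and cochaperone gene (0.26, limma adjusted p = 0.0301), rose. *Ager*, which encodes RAGE and stood at only 2.28 to 3.40 TPM in NTC libraries, fell (−0.31, limma adjusted p = 0.0378). No partner passed when replicate 2 or 3 of either NTC condition was left out, with 0 in each of those 4 fits. Without treated DKO replicate 2, 5 passed. The share of all tested genes in such fits is not given here, so nothing about the partners is read from these counts. In DKO cells and for the difference of responses the limma count was 0 of 16, beside 0.78% and 0.0343% of all tested genes, with 1 and 3 of the 16 at an unadjusted p under 0.05, beside 9.59% and 11.5%.

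**Figure D5:**
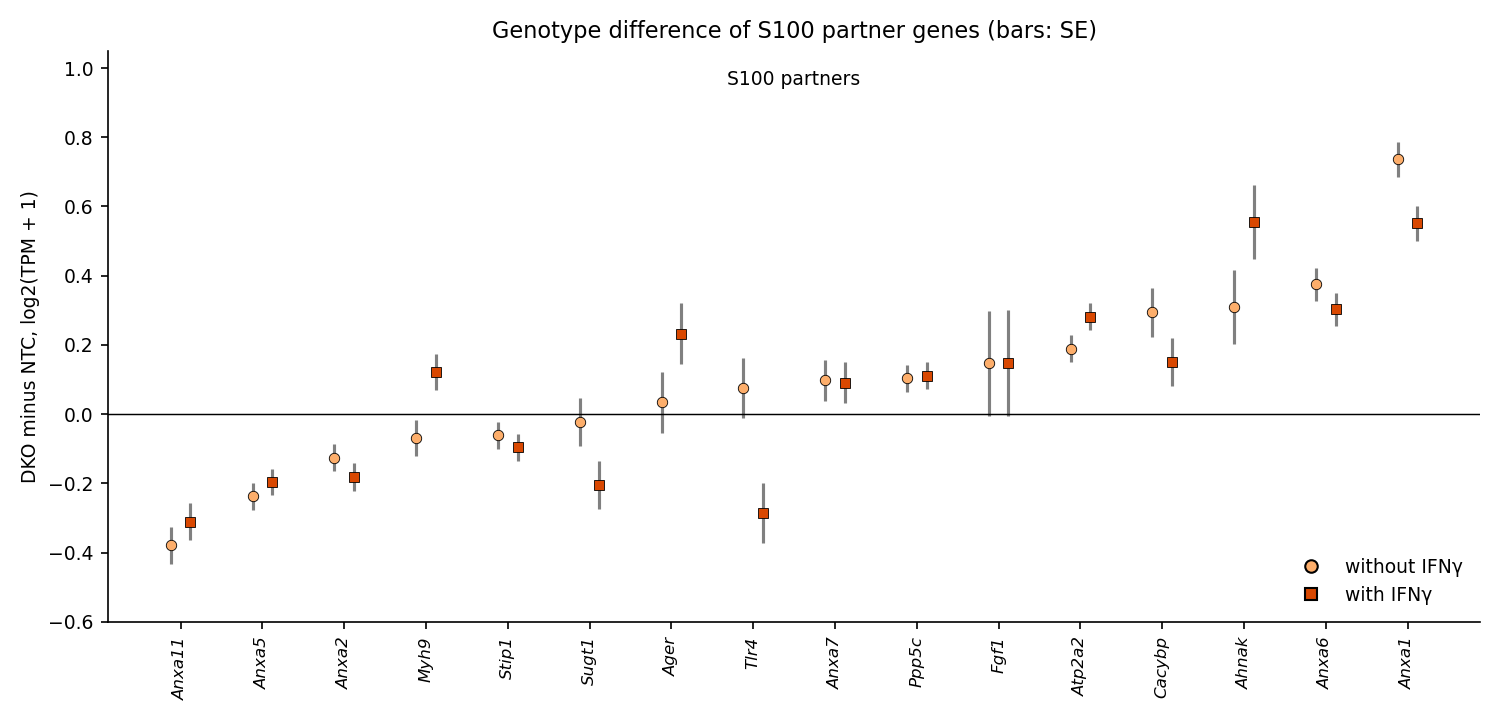
DKO minus NTC difference of log2(TPM + 1) for 16 S100 partner genes, ordered by the untreated value, with bars of 1 SE, circles without and squares with IFNγ. *Anxa1*, at 0.74 without IFNγ, is the highest circle, and all values lie between −0.38 and 0.74, below those of *S100a4* and *S100a6*.

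As a further comparison, 22 other genes of EF-hand proteins were listed and 21 tested. Between genotypes 9 had an adjusted p-value under 0.05 without IFNγ, 4 higher and 5 lower, and 12 with it, 4 higher and 8 lower, beside 36.4% and 43.3% of all tested genes, with medians of −0.06 and −0.09. No member of that list came near *S100a6* or *S100a4*: the highest, *Efhd2*, had values of 15.4, 17.3 and 15.4 TPM for untreated NTC and of 22.5, 20.2 and 19.5 TPM for untreated DKO (log2 difference 0.35, and 0.53 with IFNγ). In NTC cells 4 of the 21 rose with IFNγ, beside 7.31% of all tested genes, among them *Calm2* (0.19, limma adjusted p = 0.0249), *Cetn3* (0.27, 0.0449) and *Rcn1*, a calcium-binding protein of the endoplasmic reticulum (0.22, 0.0126). Counts for this list ran from 0 to 5 with single libraries left out. They were 0 without replicate 3 of untreated or of treated NTC cells, 1 without untreated NTC replicate 1 or treated NTC replicate 2, and 2 without untreated NTC replicate 2. Shares of all tested genes in those fits are not given here, so nothing about the list is read from these counts. *Rcn1* also rose in DKO cells (0.24, limma adjusted p = 0.0213), a call that was lost without untreated DKO replicate 1 or 2 or treated DKO replicate 1.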

How the data were processed

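RNA-seq values of 12 libraries were used, 3 for each of 4 conditions. The authors deposited these values as TPM. The table is named for counts, but its values are not whole numbers. The study states poly(A)-selected, unstranded TruSeq libraries, RSEM 1.2.4 modified to call Bowtie on a merged transcript annotation, and TopHat for unaligned reads against GRCm38. No replicates were pooled. Without strand information, genes on opposite strands share reads where their exons overlap.

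Genes were kept at 1 TPM or more in no fewer than 3 libraries and fitted on log2(TPM + 1) with limma 3.58.1 in R 4.3.3, with 1 mean per condition, a prior variance that follows the mean, and Benjamini-Hochberg adjustment over 11663 genes at a threshold of 0.05. The 5 comparisons, some of which share libraries, were treated against untreated cells in each genotype, the difference of these responses, and DKO against NTC at each treatment. The fit was tested on simulated data. The S100 members and all lists were chosen with earlier results of these data known. Positions, GC content and length came from GENCODE M21, which holds 22251 of the 23022 listed genes, and promoters from RefSeq. The text names all members, the other listed S100 genes, the nearest tested gene on each side of the cluster, up to 5 neighbours in each direction by mean genotype difference, the 5 genes most like *S100a6*, any partner, and up to 4 other EF-hand genes. *Calm2*, *Cetn3*, *Rcn1* and *Efhd2* were taken for those 4 after their values were seen, and 1 further gene of that list is counted but not reported here by name.

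Alternatives were the replicate number as a block, leaving out any 1 library, fitting a comparison's own libraries alone, a pseudocount of 0.1, testing without the filter, scaling to the same total or by median ratios, removal of a trend in GC content and length, and a prior variance without a trend. Further work used Python 3.11.15, numpy 2.4.6, pandas 2.3.3 and matplotlib 3.10.9. Splicing data were not analysed here.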

Additional observations from a re-analysis of the deposited data

How the results depend on the processing

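Each tested member's genotype difference kept its direction under every alternative and with each library left out. The untreated *S100a6* difference was 2.05 with a pseudocount of 0.1. Of the S100 genes, the number called with IFNγ in NTC cells was 1 with a prior variance without a trend and ran from 1 to 4 with single libraries left out. In DKO cells it was 1 after removal of the GC content and length trend and 1 with library totals made equal, and ran from 0 to 2 with single libraries left out. The difference of responses of *S100a1* was 0.010 with equal library totals, against −0.026. With single libraries left out, values near 0 changed sign: the difference of responses ran from −0.078 to 0.010 for *S100a1*, from −0.072 to 0.15 for *S100a4* and from −0.19 to 0.029 for *S100b*, and the response in DKO cells from −0.18 to 0.040 for *S100a4* and from −0.073 to 0.085 for *S100a6*. Called neighbours within 500 kb were 4 of 12 at each treatment in the main fit. They numbered 7 without IFNγ once the GC content and length trend was removed. With only the libraries of the comparison fitted, they numbered 2 with IFNγ. In the main fit they were 11 and 9 of 21 within 1000 kb, and 2 of 5 without IFNγ within 250 kb. Directions and shares of all tested genes under these alternatives are not given here, so nothing is read from the changes. Calls among the partners with IFNγ in NTC cells numbered 0 with the trend removed, 1 with a prior variance without a trend, and 0 to 5 with single libraries left out. For the other EF-hand genes they numbered 2 with the trend removed, 2 with median-ratio scaling, 2 with equal library totals, 1 with a prior variance without a trend, and 0 to 5 with single libraries left out. In DKO cells that list had 0 calls with only the libraries of the comparison, 0 with a prior variance without a trend, and 0 to 1 with single libraries left out. The causes were not tested. With the replicate block, S100 calls numbered 3 in NTC and 0 in DKO cells with IFNγ and 6 between genotypes at either treatment, and the other EF-hand genes had 0 in DKO cells. Replicate numbers did not pair the libraries: over 18 same-numbered pairs, correlations of the deviations from the condition means ran from −0.18 to 0.18 and 4 were over 0.1.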
